A study of Mus musculus with 7 samples.

Results

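Fibroblast growth factors (FGFs) are secreted proteins that signal through receptor tyrosine kinases, and 10 genes of this system were followed here: the ligand genes Fgf2, Fgf5, Fgf7, Fgf10, Fgf18 and Fgf21 and the receptor genes Fgfr1, Fgfr2, Fgfr3 and Fgfrl1. They were taken by symbol from a deposited table of 35727 genes, and all 10 were found. The table holds polyA RNA-seq of sarcoma cells sorted by red fluorescent protein from mouse tumours of 2 models of a soft-tissue cancer, undifferentiated pleomorphic sarcoma. Mesenchymal stem cells of female C57/Bl6 p53 knockout mice, the shared starting point of both models, received a retroviral vector for Ccne1 (model p53KO Ccne1OE, 4 libraries) or for Vgll3 (model p53KO Vgll3OE, 3 libraries). Each line was passaged as a tumour under the skin of wild-type female mice 2 times before it was transplanted into the mice whose tumours were sorted. The labels give 1 line per model, and neither a control line without an added gene nor the age of the mice. The series compares these models, so each difference below is Vgll3-labelled against Ccne1-labelled, and what the added gene does cannot be told apart from what else sets the lines apart. The labels do not tie each library to an animal of its own, so p-values measure the spread between libraries, which may be technical.

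An FGF binds its receptor together with heparan sulfate, a sugar chain on cell-surface and matrix proteoglycans, and the paired receptors then activate the RAS-ERK cascade. Fgf7 and Fgf10 are classically made by mesenchymal cells and act on epithelial cells that carry the IIIb splice form of FGFR2, while mesenchymal cells mostly carry IIIc forms. FGF21 is an endocrine member that needs the co-receptor beta-Klotho in place of heparan sulfate. FGFRL1 resembles the other receptors outside the cell but has no tyrosine kinase domain.

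Library totals were 21725890 to 53610300 counts, and levels are given as CPM (counts scaled by library size to a common total) after adjustment between libraries. Vgll3, the added gene of one model, was 4.96-fold higher in the libraries labelled for it (log2 fold change 2.31, SE 0.15, edgeR adjusted p = 1.2e-05), whereas Ccne1 was 12.7 ± 5.61 CPM (SD, n = 4) in the libraries labelled for it and 14.9 ± 2.16 CPM (n = 3) in the others (edgeR adjusted p = 0.609), so the groups are called by their labels. Of 7 mesenchymal markers, all present, 3 were higher (Col1a1, Col1a2 and Pdgfrb) and 3 lower (Vim, Pdgfra and Prrx1) in the Vgll3-labelled libraries, with a median log2 fold change of −1.52; Vim was 12670 to 15753 CPM in the Ccne1-labelled and 4150 to 4624 CPM in the Vgll3-labelled libraries. The 7 epithelial markers summed to 2.07 to 4.81 and 0.151 to 1.00 CPM, with Krt5 at 0 in all libraries; Krt8 carried the Ccne1-labelled sums and was the 1 tested and called lower (log2 fold change −4.30), and the other 6 summed to 0.218 to 1.00 and 0.113 to 0.837 CPM. The 7 endothelial markers, all tested and not called, summed to 41.4 to 117 CPM and to 28.9, 54.5 and 216 CPM in Vgll3 replicates 1 to 3, where Pecam1 alone made up 184 of the 216 CPM. The other 6 summed to 19.0 to 46.0 CPM and to 9.30, 19.2 and 32.0 CPM, and 5 of the 7 were highest in Ccne1 replicate 1. The 10 macrophage and leukocyte markers summed to 59.9 to 80.7 and 13.0 to 27.5 CPM, a gap held by Cd14, the 1 of 7 tested that was called (lower); the other 9 summed to 7.99 to 15.7 and 7.14 to 20.4 CPM, which overlap. Of the remaining lists, Rgs5 and Des of 5 tested pericyte and smooth muscle markers were higher, and Acta1 of 2 tested muscle fibre markers was lower (log2 fold change −3.91). Fabp4, the 1 adipocyte marker tested, was lower (log2 fold change −1.70), a call that ended when any 1 of Ccne1 replicates 1 to 3 or Vgll3 replicates 1 and 2 was left out (edgeR adjusted p 0.0545 to 0.121). The part of these marker differences in the results below was not tested. Vgll3 replicate 3 correlated less with the other Vgll3-labelled libraries (r across genes 0.959 and 0.963) than any other pair within a group (0.980 to 0.988), and results that rest on it are given with and without it. In whole sorted populations, fewer cells with a transcript and less transcript per cell cannot be told apart.

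Of the 10 genes, 8 had enough counts to be tested. Fgf7 and Fgf2 were higher in the Vgll3-labelled libraries, Fgfrl1 and Fgfr2 were lower, and Fgf10, Fgf18, Fgfr1 and Fgfr3 were not called. Over all 13740 genes tested, 25.1% were called higher and 26.8% lower, 51.9% together at an edgeR adjusted p below 0.05, so 4 calls among 8 tested genes is a share near the background. The groups did not overlap for 5 of the 8 tested genes, beside 55.7% of all genes tested. The median log2 fold change was −0.07 over the 8 genes and 0.01 over all genes tested.

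**Figure D1:**
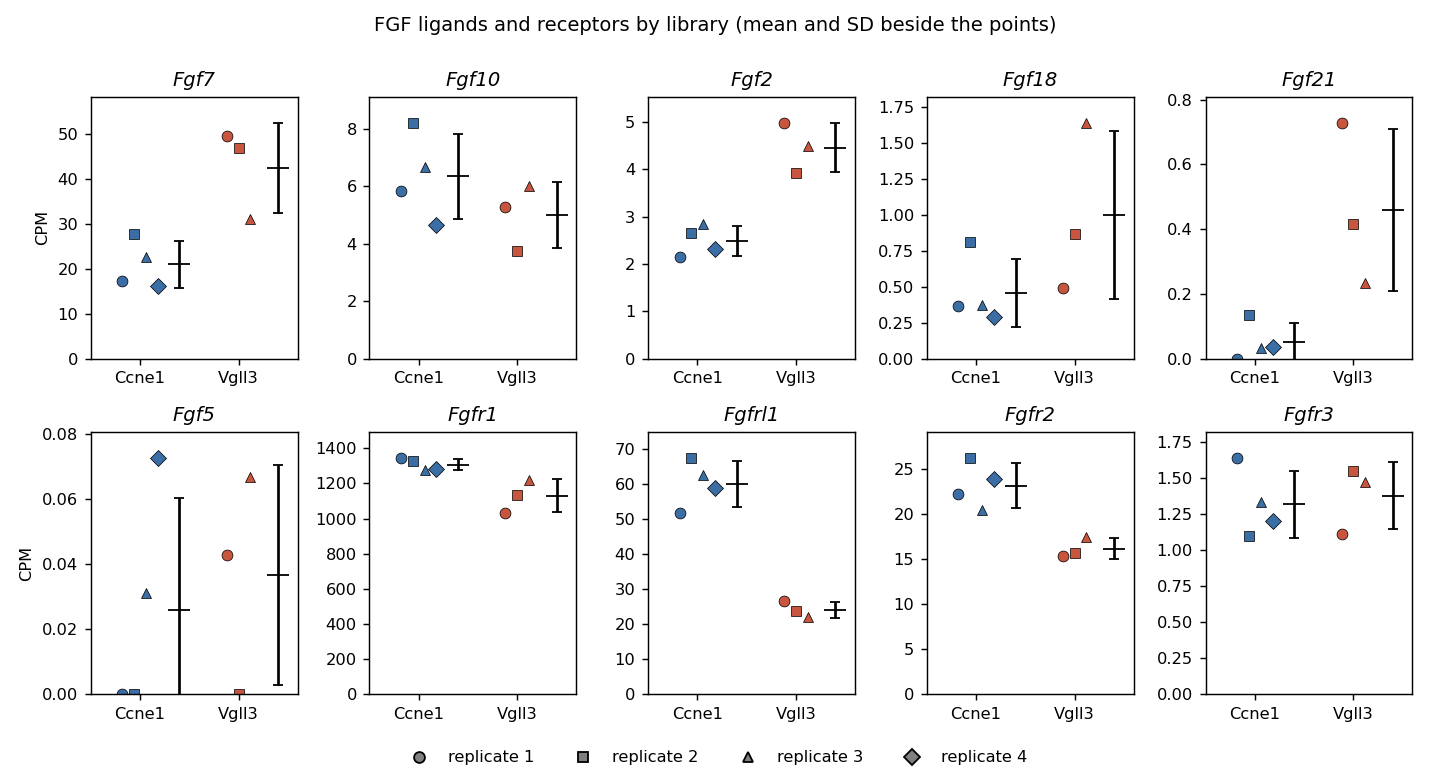
Level in CPM (vertical axes, each from 0) of the 10 FGF genes in each library; blue points are the 4 Ccne1-labelled and red points the 3 Vgll3-labelled libraries, marker shapes give the replicate number, and black bars give mean and SD (a bar that would pass below 0 ends there). Fgf7, Fgf2 and Fgf21 are higher in all Vgll3-labelled libraries, Fgfrl1, Fgfr2 and Fgfr1 are lower in all of them, and Fgf10, Fgf18, Fgf5 and Fgfr3 overlap.

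Among the ligands, Fgf7 was the most abundant. Fgf7, also called keratinocyte growth factor (ENSMUSG00000027208, mm10 chromosome 2, 126034658 to 126091185), was at 17.4, 27.8, 22.6 and 16.2 CPM in Ccne1 replicates 1 to 4 and at 49.6, 47.0 and 31.0 CPM in Vgll3 replicates 1 to 3. The groups did not overlap, and Vgll3 replicate 3 was the nearest to the Ccne1-labelled libraries. The difference was 2.02-fold (log2 fold change 1.01, SE 0.23, edgeR adjusted p = 0.00731).

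Fgf2, basic FGF, a ligand of broad receptor binding that leaves the cell without a classical signal peptide (ENSMUSG00000037225, chromosome 3, 37348477 to 37410106), had 2.14, 2.66, 2.85 and 2.32 CPM in the Ccne1-labelled and 4.97, 3.93 and 4.48 CPM in the Vgll3-labelled libraries. All 3 Vgll3-labelled libraries lay above all 4 others, at 1.79-fold (log2 fold change 0.84, SE 0.20, edgeR adjusted p = 0.00639). Its exons overlap those of Nudt6 on the opposite strand, and whether counting used strand is not given in the sources used here, so reads of the pair may be shared. Nudt6 was not called and pointed the other way (6.20 ± 1.20 and 5.12 ± 0.651 CPM, edgeR adjusted p = 0.251). Of 12 other tested genes within 1 Mb of Fgf2, 7 were called higher and 0 lower in the Vgll3-labelled libraries, with a median log2 fold change of 0.87, while the median over 680 other tested genes of chromosome 3 was −0.09. The 7 include Anxa5 (log2 fold change 0.96), Ccna2 (0.86) and Bbs7 (0.97), and Nudt6, Exosc9, Spata5, 4932438A13Rik and Spry1 were the 5 not called. DESeq2 called Spry1 lower (adjusted p = 0.0156). Whether the rise of Fgf2 belongs to the gene or to this neighbourhood was not tested.

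Fgf10, the closest relative of Fgf7 among these ligands and a driver of branching and limb outgrowth in the embryo (ENSMUSG00000021732, chromosome 13, 118714699 to 118792573), was not called. It was at 5.82, 8.20, 6.66 and 4.65 CPM in the Ccne1-labelled and 5.27, 3.74 and 5.99 CPM in the Vgll3-labelled libraries, with overlapping groups (log2 fold change −0.34, 95% interval −0.87 to 0.18, edgeR adjusted p = 0.245). Per kb of the longest annotated transcript, Fgf7 was 4.59 to 5.36 times Fgf10 in the Ccne1-labelled and 7.97 to 19.3 times in the Vgll3-labelled libraries, the lowest of the latter in replicate 3. These ratios do not overlap between the groups.

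Fgf18, a ligand of skeletal and lung development (ENSMUSG00000057967, chromosome 11, 33116970 to 33147400), was low and uneven. Its levels were 0.364, 0.808, 0.372 and 0.291 CPM in Ccne1 replicates 1 to 4 and 0.493, 0.869 and 1.64 CPM in Vgll3 replicates 1 to 3. The groups overlapped, and the difference was not called (log2 fold change 1.07, 95% interval −0.16 to 2.30, edgeR adjusted p = 0.128). The log2 fold change was 0.51 without Vgll3 replicate 3, the library with the highest Fgf18, and 1.53 without Ccne1 replicate 2, the Ccne1-labelled library with the highest Fgf18.

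Fgf21, a stress-induced hormone of liver, fat and muscle (ENSMUSG00000030827, chromosome 7, 45613890 to 45615490), was too low for the edgeR filter but separated the groups. It had 0, 7, 1 and 1 counts in Ccne1 replicates 1 to 4 and 34, 11 and 7 counts in Vgll3 replicates 1 to 3, or 0, 0.135, 0.0310 and 0.0363 CPM against 0.729, 0.416 and 0.234 CPM. Every Vgll3-labelled library lay above every Ccne1-labelled one (two-sided exact permutation p = 0.0286, the smallest that 4 against 3 libraries allow), as for 4.29% of the 9355 genes that had a count but were not tested. That set takes in genes with any count, and genes of the depth of Fgf21 were not compared separately. Among all genes tested, 55.7% did not overlap in either direction. Summed over the groups, 52 counts against 9 gave a ratio of 7.50 after scaling, with an exact 95% interval of 3.66 to 17.3 that covers counting error only. A library with 0 counts may still hold up to 3, a level of 0.0577 to 0.136 CPM, so 3 of the 4 Ccne1-labelled values lie at or under the level of 3 counts. In the fit without the low-count filter the log2 fold change was 2.92 (SE 0.87, edgeR adjusted p = 0.0176).

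FGF21 is known as a target of ATF4, the transcription factor of the integrated stress response, which binds C/EBP-ATF elements of the form TGATGNAA. The 250 bases before the RefSeq start of Fgf21 are printed because they hold 1 such match, in capitals and on the reverse strand, and the matching stretches of Asns, Chac1 and Vldlr are set beside it to show the shared letters (RefSeq, GRCm38.p6, 5′ to 3′ on the strand of each gene).
Fgf21, chr7:45615491-45615740, minus strand: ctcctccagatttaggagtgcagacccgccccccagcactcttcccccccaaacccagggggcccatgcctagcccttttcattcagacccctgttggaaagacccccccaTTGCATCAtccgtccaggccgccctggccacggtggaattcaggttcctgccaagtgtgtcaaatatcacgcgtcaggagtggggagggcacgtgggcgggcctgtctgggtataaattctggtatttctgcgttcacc
Asns, chr6:7693210-7693248, minus strand: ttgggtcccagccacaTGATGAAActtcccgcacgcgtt
Chac1, chr2:119351033-119351072, plus strand: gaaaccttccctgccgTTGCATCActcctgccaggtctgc
Vldlr, chr19:27216804-27216843, plus strand: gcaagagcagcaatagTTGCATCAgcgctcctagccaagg
The match lies 139 bases before the start in Fgf21, 23 in Asns, 193 in Chac1 and 200 in Vldlr. Of 32851 promoters searched on both strands over the same length, 3.45% held TGATGNAA, against 3 of 8 genes on the ATF4 list and 1 of 9 FGF genes with a promoter in the table. A match is a description of letters only. The core GGAATG, bound by the TEAD factors with which VGLL3 works, was in 0 of these 9 FGF promoters and in 12.6% of all promoters.

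The ATF4 list holds Atf4 and 7 of its targets, and of the 8 tested, 5 were higher and 1 was lower in the Vgll3-labelled libraries (median log2 fold change 1.27). Over all genes tested, 25.1% were called higher and 26.8% lower. Any link between this list and the level of Fgf21 was not tested. Vldlr, a lipoprotein receptor, rose from 4.67 ± 1.66 to 24.0 ± 7.78 CPM (edgeR adjusted p = 0.000527 at log2 fold change 2.35). Trib3, a pseudokinase induced by stress, Sesn2, a leucine sensor, Asns, which makes asparagine, and Psat1 of serine synthesis also rose, by log2 fold changes of 2.12, 1.73, 1.33 and 1.20. Chac1, which degrades glutathione, was lower, 19.0 ± 3.05 against 14.2 ± 2.26 CPM (edgeR adjusted p = 0.0419 at log2 fold change −0.43); leaving out Ccne1 replicate 2, 3 or 4, or Vgll3 replicate 1 or 3, ended the call (edgeR adjusted p 0.0707 to 0.104). Atf4 mRNA itself was 401 ± 43.3 and 451 ± 16.7 CPM (edgeR adjusted p = 0.153, not called), and Ddit3, which encodes CHOP, was not called either (8.62 ± 0.436 and 10.8 ± 2.28 CPM). Klb, the gene of beta-Klotho, had counts in Ccne1 replicate 4 alone, at 0.145 CPM.

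Fgf5, a regulator of the hair cycle (ENSMUSG00000029337, chromosome 5, 98254184 to 98277033), was at the limit of detection, with 0, 0, 1 and 2 counts in the Ccne1-labelled and 2, 0 and 2 counts in the Vgll3-labelled libraries. No difference was detectable at this depth (two-sided exact permutation p = 0.743).

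Among the receptors, Fgfr1 led by far and Fgfrl1 differed most. Fgfr1 (ENSMUSG00000031565, chromosome 8, 25518759 to 25575718), the main FGF receptor of mesenchymal cells, was at 1344, 1329, 1277 and 1282 CPM in the Ccne1-labelled and 1032, 1136 and 1220 CPM in the Vgll3-labelled libraries. The groups did not overlap, yet the difference was small, 1.16-fold lower in the Vgll3-labelled libraries, and missed the threshold (log2 fold change −0.21, 95% interval −0.40 to −0.03, edgeR adjusted p = 0.0554). It passed without Vgll3 replicate 3 (−0.26, edgeR adjusted p = 0.0158), with DESeq2 (adjusted p = 0.017) and with limma-voom (adjusted p = 0.0475).

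Fgfrl1, the receptor without a kinase domain (ENSMUSG00000008090, chromosome 5, 108694229 to 108706950), was at 51.6, 67.3, 62.4 and 58.8 CPM in the Ccne1-labelled and 26.4, 23.8 and 21.9 CPM in the Vgll3-labelled libraries. The latter were 2.50-fold lower (log2 fold change −1.32, SE 0.11, edgeR adjusted p = 2.81e-05), and the lowest Ccne1-labelled library lay far above the highest Vgll3-labelled one. Its 18 tested neighbours within 1 Mb had a median log2 fold change of −0.03.

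Fgfr2 (ENSMUSG00000030849, chromosome 7, 130162451 to 130266808), the receptor of FGF7 and FGF10 in its IIIb form, had 22.2, 26.2, 20.4 and 23.8 CPM in the Ccne1-labelled and 15.3, 15.6 and 17.5 CPM in the Vgll3-labelled libraries. All 3 Vgll3-labelled values were lower, 1.44-fold on average (log2 fold change −0.52, SE 0.11, edgeR adjusted p = 0.00316). Counts per gene do not show which splice form was present. The GENCODE model of Fgfr2 shares exon sequence with Ctbp2, which rose (56.7 ± 4.38 to 76.7 ± 7.98 CPM, edgeR adjusted p = 0.00392).

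Fgfr3, a receptor best known as a brake on bone growth (ENSMUSG00000054252, chromosome 5, 33721724 to 33737068), was low in both models. It had 1.64, 1.10, 1.33 and 1.20 CPM in the Ccne1-labelled and 1.11, 1.55 and 1.47 CPM in the Vgll3-labelled libraries, with full overlap (log2 fold change 0.07, 95% interval −0.62 to 0.75, edgeR adjusted p = 0.864); the sign turned without Ccne1 replicate 2 (−0.01) and without Vgll3 replicate 2 (−0.030).

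**Figure D2:**
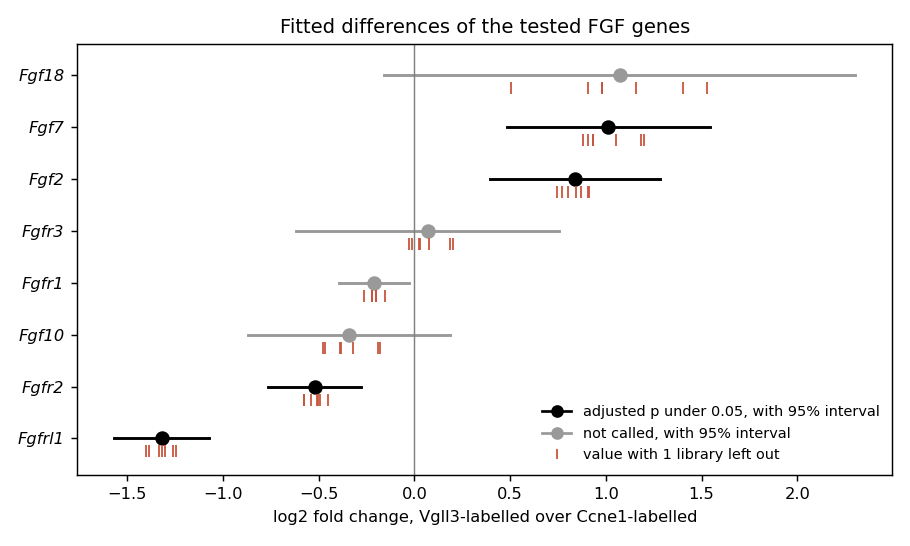
Log2 fold change (horizontal axis, Vgll3-labelled over Ccne1-labelled) of the 8 tested FGF genes with its 95% interval; black marks passed an edgeR adjusted p of 0.05, grey marks did not, and red ticks give the value with 1 library left out. Fgf7 and Fgf2 sit right of 0 and Fgfrl1 and Fgfr2 left of it with all their ticks, while those of Fgf18 spread from 0.51 to 1.53 and those of Fgfr3 lie on both sides.

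Levels of different genes were compared per kb of the longest annotated transcript. Among the ligands the order in the Ccne1-labelled libraries was Fgf7 (7.86 ± 1.99 CPM per kb, SD, n = 4), Fgf10 (1.54 ± 0.363), Fgf18 (0.422 ± 0.217), Fgf2 (0.417 ± 0.0536), Fgf21 (0.0531 ± 0.0614) and Fgf5 (0.0104 ± 0.0138). In the Vgll3-labelled libraries the order was the same: Fgf7 at 15.9 ± 3.76 CPM per kb (SD, n = 3), then 1.22 ± 0.279, 0.921 ± 0.538, 0.747 ± 0.0874, 0.483 ± 0.263 and 0.0146 ± 0.0136. Fgf7 lay clear of the rest in both groups. Fgf18 and Fgf2 did not differ beyond their spread in either group, nor did Fgf21 and Fgf5 in the Ccne1-labelled or, in the Vgll3-labelled libraries, Fgf10 and Fgf18 or Fgf2 and Fgf21. Among the receptors the levels were 259 ± 6.70 and 224 ± 18.7 CPM per kb for Fgfr1, 25.8 ± 2.84 and 10.3 ± 0.986 for Fgfrl1, 5.22 ± 0.558 and 3.64 ± 0.263 for Fgfr2, and 0.310 ± 0.0553 and 0.325 ± 0.0546 for Fgfr3, Ccne1-labelled first. No neighbours in this order came within their spread.

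Fgfr1 thus made up 88.3 to 90.6% of the summed receptor level per kb in the Ccne1-labelled and 93.1 to 94.7% in the Vgll3-labelled libraries, ranges that do not overlap. The share of Fgfrl1 was 7.53 to 9.67% and 3.67 to 5.16%. Of the summed level of the ligands followed here, Fgf7 made up 75.5 to 77.3% in the Ccne1-labelled libraries. Its share was 84.7, 86.2 and 74.4% in Vgll3 replicates 1 to 3, so replicate 3 fell below all others. In that library Fgf18 held 9.68% and Fgf10 9.33%, against 2.07 and 3.93% and 5.85 and 4.46% in Vgll3 replicates 1 and 2. The share of Fgf10 was 14.3 to 16.4% in the Ccne1-labelled libraries. With the summed length of all annotated exons in place of the longest transcript, Fgfr1 still led, at 84.7% and 91.6% on average.

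**Figure D3:**
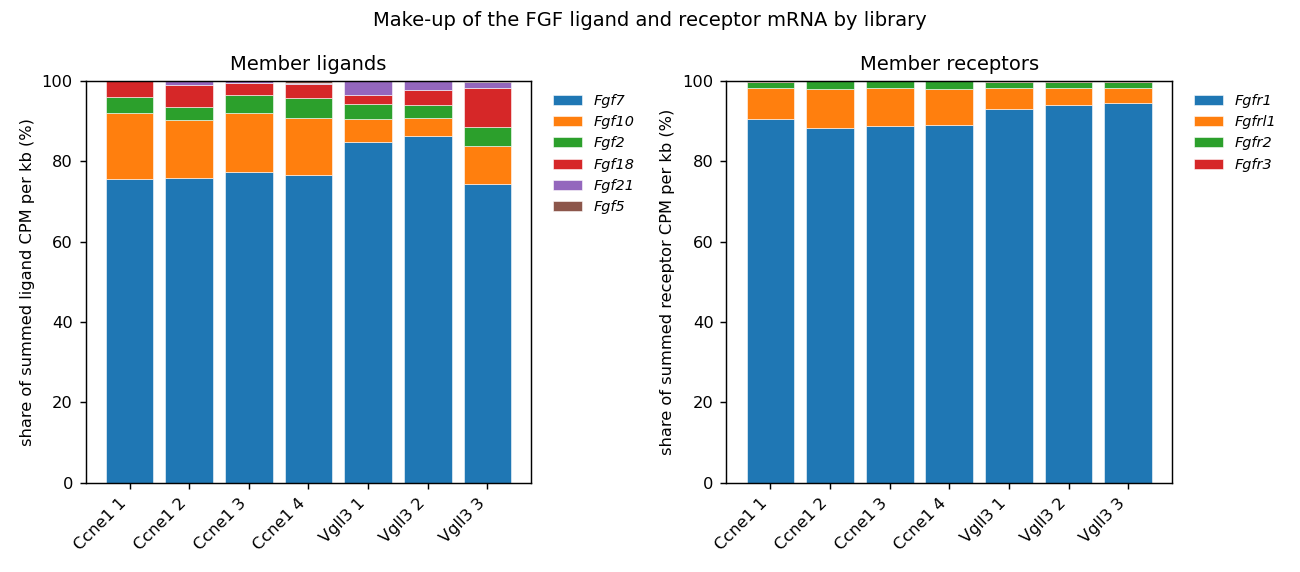
Share in percent (vertical axis) of each FGF gene in the summed CPM per kb of the 6 ligands (left) and the 4 receptors (right), 1 bar per library. Fgf7 and Fgfr1 fill most of each bar, the Fgfrl1 part is smaller in the 3 Vgll3-labelled libraries, and Vgll3 replicate 3 differs from the other 2 of its group in its Fgf18 and Fgf7 parts.

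The other genes were taken as 11 lists by role, namely the ATF4 list and lists of other genes of the FGF system. Of these 90 genes, 67 were tested, and 18 were higher and 24 lower in the Vgll3-labelled libraries, beside 25.1% and 26.8% of all genes tested. These totals include the ATF4 list, with 8 tested, 5 higher and 1 lower.

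Other ligands were low, together 1.05 to 2.32 CPM in the Ccne1-labelled and 0.529 to 2.64 CPM in the Vgll3-labelled libraries. Of 12, only Fgf1 was tested and it was not called (0.967 ± 0.313 and 0.579 ± 0.416 CPM, edgeR adjusted p = 0.281), except without Vgll3 replicate 3 (edgeR adjusted p = 0.0423 at log2 fold change −1.40), and 3 had no count in any library. Of the 4 FGF homologous factors, which stay inside the cell and bind sodium channels, 2 were tested. Fgf14 rose from 0.127 ± 0.0685 to 1.53 ± 0.288 CPM (edgeR adjusted p = 0.000249 at log2 fold change 3.65). It passed the filter only through the Vgll3-labelled libraries. Its Ccne1-labelled values, 0.0770 to 0.227 CPM, lay near the level of 3 counts, so the size of this rise is uncertain. Fgf11 fell from 6.50 ± 0.653 to 3.72 ± 1.22 CPM (edgeR adjusted p = 0.0159 at log2 fold change −0.80, and 0.0544 without Vgll3 replicate 2). The carrier gene Fgfbp3, whose protein releases FGFs from heparan sulfate, fell from 7.41 ± 1.46 to 2.68 ± 0.464 CPM (edgeR adjusted p = 0.00044 at log2 fold change −1.47). Of 7 other receptors and partners, Fgfr4, Kl, Klb, Lctl and Flrt1 were too low to test, and Flrt2, a membrane protein that binds FGF receptors, rose from 173 ± 24.8 to 268 ± 24.9 CPM (edgeR adjusted p = 0.00222 at log2 fold change 0.63). Its relative Flrt3 was not called (18.3 ± 8.27 and 16.4 ± 2.94 CPM, edgeR adjusted p = 0.717).

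Heparan sulfate genes split in both directions. Of 10 tested core proteins 4 rose and 4 fell (median log2 fold change −0.32). Over all genes tested, 25.1% were called higher and 26.8% lower, so calls in both directions are not particular to these genes. Agrn (agrin) rose from 136 ± 17.1 to 356 ± 35.2 CPM (edgeR adjusted p = 2.48e-05 at log2 fold change 1.39), and Hspg2 (perlecan), the most abundant, from 2125 ± 120 to 3309 ± 367 CPM (log2 fold change 0.64). Gpc6, a glypican, fell from 28.0 ± 2.60 to 3.98 ± 1.37 CPM (edgeR adjusted p = 2.67e-05 at log2 fold change −2.81). Of 12 tested genes that build or edit the chain 2 rose and 4 fell (median −0.48). Ext1, a chain polymerase, was 395 ± 23.4 and 521 ± 101 CPM (edgeR adjusted p = 0.0262 at log2 fold change 0.40), a call that hung on each of Ccne1 replicates 1, 2 and 4 and Vgll3 replicates 1 and 2 (edgeR adjusted p 0.0526 to 0.1004 in the fits that omit 1 of them), and Hs6st2, a 6-O-sulfotransferase, fell from 62.6 ± 7.25 to 36.6 ± 7.39 CPM (edgeR adjusted p = 0.00222 at log2 fold change −0.77).

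Adaptors and other signalling partners of the receptor had log2 fold changes from −0.65 (Sos1) to 0.38 (Sos2). Of 11 tested, 1 rose and 5 fell (median log2 fold change −0.08), beside 25.1% and 26.8% of all genes tested. The exchange factor gene Sos2 rose from 26.8 ± 0.67 to 34.9 ± 2.46 CPM and its relative Sos1 fell from 69.8 ± 5.73 to 44.5 ± 4.94 CPM (edgeR adjusted p = 0.0025 and 0.000644). Shc1, the most abundant, was 157 ± 12.9 and 150 ± 3.56 CPM (edgeR adjusted p = 0.504). Of 3 tested regulators of receptor splicing, Ptbp1 rose and Ptbp2 and Rbfox2 fell, and Esrp1 and Esrp2, which promote the IIIb forms in epithelia, were too low to test.

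Feedback inhibitors of the pathway were lower or not called. Of 10 tested, 5 fell and 0 rose (median log2 fold change −1.02), beside 26.8% of all genes called lower and 25.1% called higher. In edgeR 0 also rose at an unadjusted p below 0.05, as in DESeq2 after adjustment. For these further counts no share over all genes is given. Spry2, a Sprouty inhibitor of RAS activation, fell from 99.4 ± 12.7 to 39.7 ± 10.6 CPM (edgeR adjusted p = 0.000639 at log2 fold change −1.32), and Dusp4, a phosphatase of ERK, from 422 ± 110 to 176 ± 33.0 CPM (edgeR adjusted p = 0.0017 at log2 fold change −1.26). Spred1, Spred2 and Spred3 were the other 3 called. Dusp6 and Spry4, also used as readouts of ERK activity, were not called (log2 fold change 0.09 and 0.06, edgeR adjusted p = 0.421 and 0.593). Transcriptional targets showed no common direction: of 7 tested, 3 rose (Egr1, Ier2 and Fosl1) and 1 fell (Etv5). Egr1, an immediate-early zinc finger factor, was 183 ± 12.3 and 1376 ± 53.2 CPM (edgeR adjusted p = 8.37e-07 at log2 fold change 2.91), and Etv5, an ETS factor downstream of FGF, 47.4 ± 3.32 and 36.0 ± 1.74 CPM (edgeR adjusted p = 0.00288 at log2 fold change −0.40). Etv1 and Etv4, of the same ETS group, were not called (log2 fold change −0.14 and −0.04). Genes such as Egr1, Ier2 and Fosl1 also respond to many other stimuli, and no measure of FGF receptor activity is in the table.

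**Figure D4:**
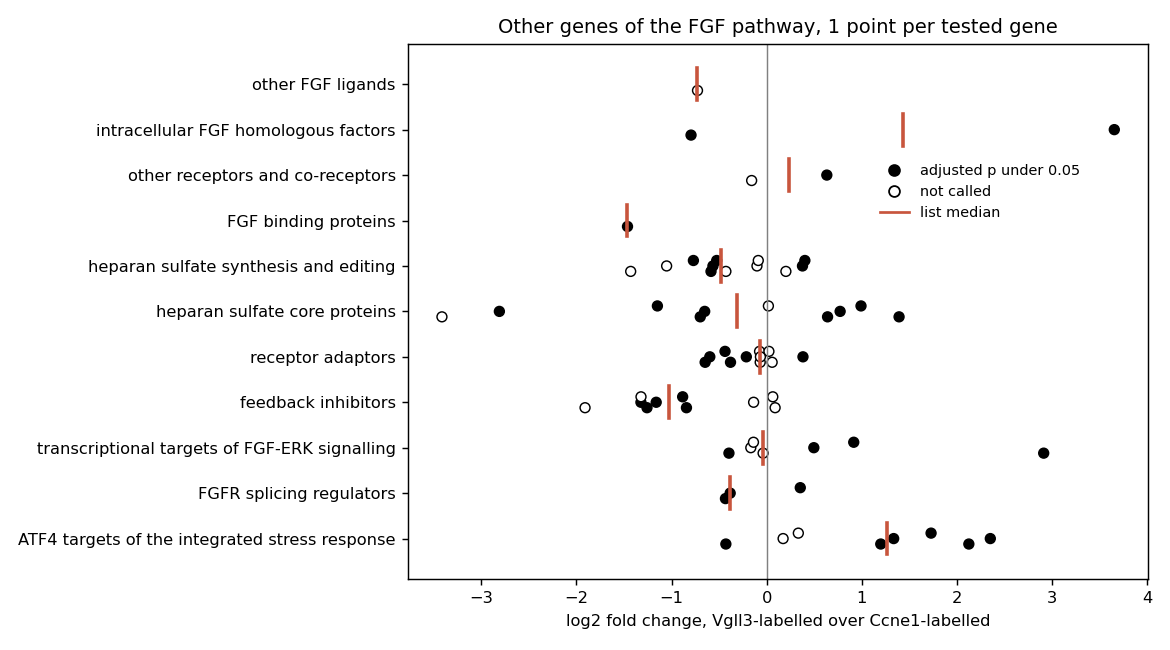
Log2 fold change (horizontal axis, Vgll3-labelled over Ccne1-labelled) of the 67 tested genes on the 11 lists, 1 point per gene; filled points passed an edgeR adjusted p of 0.05 and red bars give list medians. Feedback inhibitors reach from −1.91 to 0.09 with a median of −1.02, the ATF4 list has a median of 1.27, and heparan sulfate genes lie on both sides of 0.

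Several genes that act on FGF signalling stood apart in Vgll3 replicate 3; they were picked after their values were seen. Sulf1 and Sulf2 encode endosulfatases that trim the heparan sulfate needed by FGF receptors. Sulf2 was at 105, 109, 141 and 93.7 CPM in Ccne1 replicates 1 to 4 and at 3.56, 4.65 and 117 CPM in Vgll3 replicates 1 to 3. Sulf1 was at 62.9, 80.3, 79.8 and 89.2 CPM, and at 20.2, 16.1 and 76.8 CPM. In both, replicate 3 lay within the Ccne1-labelled range. Spry1, another Sprouty gene, was at 57.0 to 73.4 CPM in the Ccne1-labelled libraries and 6.52, 6.57 and 39.3 CPM in the Vgll3-labelled ones. Il17rd, the FGF antagonist Sef, was at 4.73 to 8.01 CPM and 1.24, 1.81 and 5.39 CPM. With all libraries none of these 4 was called (edgeR adjusted p 0.387, 0.173, 0.0655 and 0.0555 in this order). DESeq2 and limma-voom called Spry1 and Il17rd lower, and limma-voom also Sulf2 (adjusted p = 0.0465), for which DESeq2 gave no adjusted p. Without Vgll3 replicate 3 all 4 were called lower, with log2 fold changes of −4.79 (Sulf2), −2.09 (Sulf1), −3.31 (Spry1) and −2.21 (Il17rd). In that fit 3757 of all 14035 genes tested were called lower. Feedback inhibitors called lower were 7 in place of 5, with Spry1 and Il17rd among the 7. Of the 7 endothelial markers, Pecam1 and Kdr were highest in that library and the other 5 in Ccne1 replicate 1; their part in these levels was not tested.

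**Figure D5:**
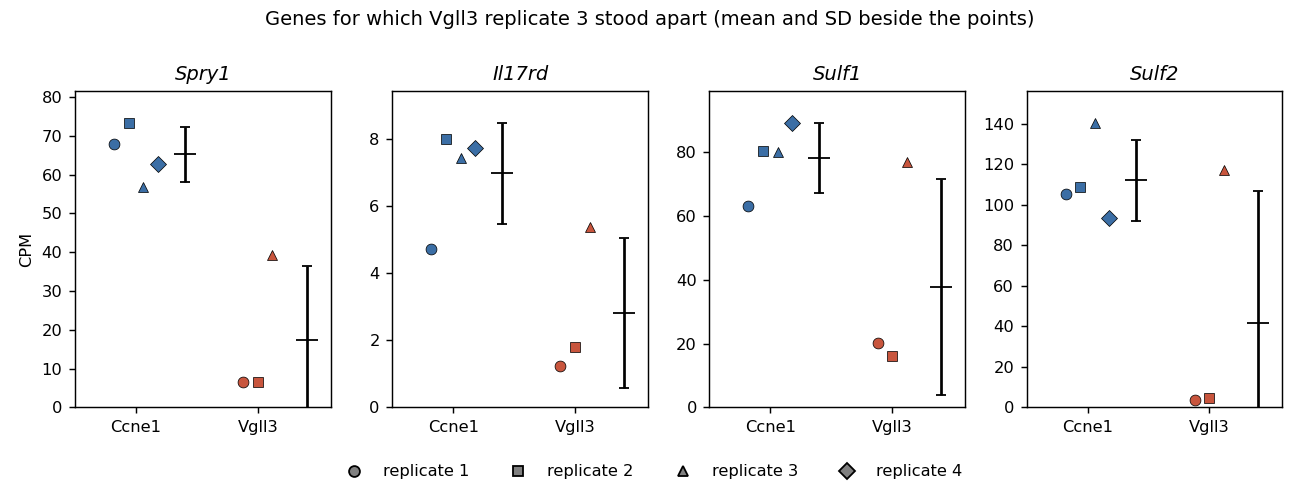
Level in CPM (vertical axes, each from 0) of Spry1, Il17rd, Sulf1 and Sulf2 in each library, with mean and SD as black bars that end at 0. Vgll3 replicate 3, the red triangle, lies far above the other 2 Vgll3-labelled libraries and, for Sulf1, Sulf2 and Il17rd, within the Ccne1-labelled range.

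The tested genes most like Fgf7 across the 7 libraries, by the root mean square difference of centred log2 CPM, were Tg, Rab3d and Ypel2 (0.14, 0.14 and 0.15). Those most like Fgfr1 were Polr2j, Tmem259 and Kdm6a (0.03, 0.04 and 0.04). Their own log2 fold changes were 1.19, 1.14 and 1.01, and −0.24, −0.22 and −0.18, in the same order. Rab3d and Ypel2 were called higher. Tg, at only 0.218 to 0.814 CPM, was not called (edgeR adjusted p = 0.0541). Polr2j, Tmem259 and Kdm6a were not called either (edgeR adjusted p = 0.0518, 0.0537 and 0.0965).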

How the data were processed

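For 7 libraries the deposited values are estimated counts, given per gene, which the authors made with Salmon on genome build mm10, per the submitters' processing notes. The version, annotation, way of summing to genes and strand setting were not given in the sources used here. All values were whole, and the counts were not scaled between libraries. Symbols came from a GENCODE name table (35422 genes matched), member coordinates from RefSeq (GRCm38.p6, the same assembly as mm10) and lengths from GENCODE. Where 2 identifiers shared a symbol (Ddit3), the more abundant was used, and Spry3 is not analysed here.

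The test was the robust quasi-likelihood F test of edgeR 4.0.16 under R 4.3.3, after filterByExpr and TMM scaling, with no covariate beside the model, Benjamini-Hochberg over all 13740 genes tested, threshold 0.05. Each SE was derived from F and the size of the log2 fold change. CPM uses TMM effective sizes. Genes below the filter had a two-sided exact permutation test. The test was checked on simulated counts. No library was a copy of another (chi-square per degree of freedom 11.7 or more within groups). The genes and lists were chosen with earlier results of these data known. Named genes are all 10 FGF genes and, of each list, the most abundant gene and the called gene with the largest change in each direction; others were chosen after their values were seen, as were the marker sums without the most abundant marker. Alternatives were DESeq2 1.42.0 and its size factors, limma-voom (limma 3.58.1), other filters, the replicate number as a block, and each library left out.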

Additional observations from a re-analysis of the deposited data

Results flagged for a closer look

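In the 4 Ccne1-labelled libraries, 1 library lay far from the other 3 for 5 of 55 genes checked, where chance flags about 1 gene in 20. The gap to the nearest library, as a share of the group's range, was 0.977 for Dusp4, 0.967 for Vldlr, 0.906 for Krt8, 0.844 for Fgf18 and 0.836 for Spry4, each above Dixon's critical value for 4 samples. In all 5 the library was Ccne1 replicate 2, the deepest at 53610300 counts, and it was the highest of its group.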

How the results depend on the processing

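Across 53 genes and 683 gene-by-setting values, 636 kept their direction and side of the threshold, 21 lost a call, 23 gained one and 3 changed sign without passing the threshold (Fgfr3 at −0.01 without Ccne1 replicate 2 and −0.030 without Vgll3 replicate 2, and Pecam1 at −0.60 without Vgll3 replicate 3; with 1 library left out they ran from −0.030 to 0.20 and from −0.60 to 1.40). The calls of Fgf7, Fgfr2 and Fgfrl1 held under every alternative run, and that of Fgf2 under all except the replicate block. The members called were 2 to 3 higher and 2 to 3 lower with 1 library left out, when the genes called on the 11 lists were 17 to 19 and 21 to 27. DESeq2 and the fit without a filter called 3 members higher, the third being Fgf21. Same-numbered libraries did not deviate together (correlations −0.15, −0.17 and −0.10), so there was no sign that the numbers pair libraries. So few libraries cannot exclude such pairing. With the replicate block, 4841 in place of 7133 genes were called, and 1 member was higher (Fgf2 had an adjusted p of 0.0721). In that fit 0 heparan sulfate synthesis genes were higher, 0 splicing regulators higher and 0 ATF4 list genes lower, while Il17rd was called lower (−1.50, adjusted p 0.0292). Without a filter and with DESeq2, 2 other receptors and partners were higher, and with a minimum mean of 1 CPM 0 homologous factors were higher, since Fgf14 was no longer tested. With 1 library left out, other ligands lower ran from 0 to 1, homologous factors lower from 0 to 1, heparan sulfate synthesis genes higher from 1 to 3, targets lower from 1 to 2 and ATF4 list genes lower from 0 to 1. Exon union lengths moved the mean shares to 84.7 and 91.6% for Fgfr1, 13.8 and 6.98% for Fgfrl1 (Ccne1-labelled first) and 74.7% for Fgf7 in the Ccne1-labelled libraries. Permutation tests of Fgf21 and Fgf5 were not run with a library left out, where the smallest possible p is 0.0667 or 0.1. Fgf5, Fgf18 and Fgf21 are limited by their low counts.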

Other observations

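Genes near the other members were counted in the same way as those near Fgf2. Within 1 Mb of Fgf7, 7 of 21 tested genes were called higher and 2 lower (median log2 fold change 0.26), and within 1 Mb of Fgfr2, 2 of 6 were higher and 1 lower (median 0.19), the opposite direction to Fgfr2. Around Fgfrl1, 2 of 18 were higher and 6 lower. Around Fgfr1, 1 of 18 was higher and 6 were lower, with a median of −0.22, close to the −0.21 of Fgfr1, and the median over 720 other tested genes of chromosome 8 was −0.14. Chromosome 11, which carries Fgf18, had a median of −0.30 over 1096 genes, while the value of Fgf18 was 1.07 and was not called.

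Fgf2 and Spry1, a ligand gene and the gene of an inhibitor of its pathway, lie in the same stretch of chromosome 3, and their values pointed in opposite directions (log2 fold change 0.84 and −1.91, the latter called only with DESeq2, with limma-voom or without Vgll3 replicate 3).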
